A study of Mus musculus with 5 samples.

Results

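The glucocorticoid receptor, its activating enzyme and 8 of its textbook target genes were followed in mature 3T3-L1 adipocytes that had been differentiated with dexamethasone, a synthetic glucocorticoid, and then kept with or without myeloma cells. The 10 genes were taken as a fixed list of symbols, and a probe set was used where the platform annotation gave it exactly that symbol. Of the 10 genes 9 were measured, each by 1 probe set, among 22206 probe sets in all. Glul, which encodes glutamine synthetase, was not analysed here.

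The 3T3-L1 line is a mouse fibroblast line that turns into fat cells in culture. All 5 samples received 1 µM dexamethasone with 0.5 mM IBMX, a phosphodiesterase inhibitor that raises cyclic AMP, and 5 µg/mL insulin over 4 days. Insulin without the other agents followed for 2 days. A last day (1 day) was in basal medium. The exposed group (3 arrays) then spent 72 h in RPMI-1640 with 10% fetal bovine serum while human MM.1S myeloma cells grew behind a 0.4 µm transwell membrane, and the control group (2 arrays) spent the same time in that medium alone. RNA was therefore taken 6 days after the dexamethasone mixture had been removed in both groups. No arrays of cells still in dexamethasone were analysed here, so the values give levels after withdrawal and not the change since. The cells are 1 line treated in culture, and the labels do not say that replicates came from separate cultures, so p-values cover only the variation among these samples, which could be technical.

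Glucocorticoids enter cells and bind the receptor, which is held ready in the cytoplasm by chaperones. The bound receptor moves to the nucleus, where it binds palindromic response elements and raises or lowers the transcription of nearby genes. In preadipocytes this hormone signal, together with cyclic AMP and insulin, starts differentiation, and mature fat cells regenerate active hormone themselves through Hsd11b1. Among the targets, Fkbp5 acts back on the pathway by lowering the hormone affinity of the receptor, and Dusp1 and Tsc22d3 dampen inflammatory signalling.

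Sequence near the start sites is shown for the 3 members whose promoter windows held a full response element for the receptor or for the cyclic AMP pathway, the 2 signals that the differentiation mixture supplied besides insulin. Windows of 300 bases, from 250 before to 50 after each annotated start, came from RefSeq on GRCm38.p6. They covered 8 of the 10 listed genes with 16 windows. The receptor's palindrome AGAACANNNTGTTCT, which reads the same on both strands, was found in 3 of 32851 windows genome-wide (0.00913%). Among the members, 1 of the 6 Sgk1 windows held it, 189 to 175 bases before that start. The cyclic AMP element TGACGTCA, also its own reverse complement, was in 588 windows (1.79%), among them the Dusp1 window and 1 of the 2 Errfi1 windows. The receptor's half-site TGTTCT, searched on both strands and contained in the palindrome, was in 19.0% of all windows and in 4 of the 16 member windows (3 of Sgk1 and 1 of Tsc22d3). Of 33 windows for 26 other glucocorticoid-induced genes counted below, 0 held the palindrome, 0 the cyclic AMP element and 4 the half-site. With the palindrome in 0.00913% of all windows, its absence from 33 cannot set these genes apart from others. Inexact palindromes and sequence outside the windows were not searched. In the stretches below, capitals mark the element, and the flanks are 30 bases on each side, read along the gene's strand. They lie at chr10:21993671-21993745 (plus strand) for Sgk1, chr17:26508578-26508645 (minus strand) for Dusp1 and chr4:150854989-150855056 (plus strand) for Errfi1.
Sgk1: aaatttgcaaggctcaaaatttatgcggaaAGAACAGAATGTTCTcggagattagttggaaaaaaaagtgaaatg
Dusp1: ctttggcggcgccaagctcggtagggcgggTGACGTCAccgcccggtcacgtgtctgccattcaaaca
Errfi1: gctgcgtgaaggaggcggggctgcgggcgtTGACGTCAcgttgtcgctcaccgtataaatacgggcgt
A match of letters is a description and shows no binding in these cells.

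The adipocyte label was checked against marker genes. Of 10 measured adipocyte markers 9 lay above the median level of all probe sets (4.81 on the log2 scale), up to 12.37 for Fabp4, with Lep lowest at 3.17. Adipoq averaged 11.57 on exposed and 11.58 on control arrays, and Pparg 10.99 and 10.97. In mean, 7 of the 10 were lower and 3 higher on exposed arrays, where 50.1% of all probe sets were lower. Groups did not overlap for 2 of them (20.0%, against 17.3% of all probe sets). These were Retn, higher on exposed arrays (log2 difference 0.46), and Cebpa, lower (-0.24). At a limma adjusted p under 0.05, 0 of the 10 were called. Markers of preadipocytes and fibroblasts, from which the line derives, ranged from 2.91 for Dpp4 to 12.32 for Vim. Their mean level was lower on every exposed array (8.35 to 8.38) than on both control arrays (8.46 and 8.51). In group mean 8 of 9 were lower, beside 50.1% of all probe sets. Groups did not overlap for 2 of the 9 (22.2%, against 17.3% of all probe sets), and 0 had a limma unadjusted p under 0.05. The part of this in the results below was not tested. B and plasma cell markers (mean level 4.00, with Prdm1 at 2.18 and Xbp1 at 8.78) and macrophage markers (mean level 3.88, with C1qa at 2.40 and Cd14 at 6.63) were mostly dim, with 9 of 11 and 7 of 9 below the median level. Their mean levels over arrays were 3.94 to 4.11 exposed and 3.91 to 4.11 control for the first list, and 3.81 to 3.93 and 3.76 to 4.02 for the second. Exposed array 3 stood farthest from the others, with 122 probe sets more than 2-fold from the median of the other 4 arrays, against 30 to 94 on the rest. Detection calls were not part of the table, which left the limit of background unknown. In bulk RNA, fewer cells with a transcript and less of it per cell cannot be told apart.

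None of the 9 measured genes passed the test between exposed and control adipocytes. Limma called 0 of 9 at an adjusted p under 0.05, against 0 of 22206 probe sets (0.0%), and a fit without moderation also called 0. At an unadjusted p under 0.05 there were 0 of the 9, beside 3.49% of all probe sets. Differences, exposed minus control on the log2 scale, ran from -0.20 for Tsc22d3 to 0.12 for Sgk1, or ratios of 0.87 to 1.08. The 95% interval of every one of the 9 included 0 and lay within 2-fold in both directions, as it did for 92.9% of all probe sets. Group means were lower on exposed arrays for 6 genes and higher for 3, where 50.1% of all probe sets were lower. The median difference over the 9 was -0.11, beside -0.0004 over all probe sets, and it was -0.0073 without exposed array 3 and -0.052 without control array 1. All 9 lay above the median level, from 6.12 for Tsc22d3 to 10.78 for Hsd11b1. Probe sets differ in brightness for the same amount of RNA, so these levels do not rank the transcripts.

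**Figure D1:**
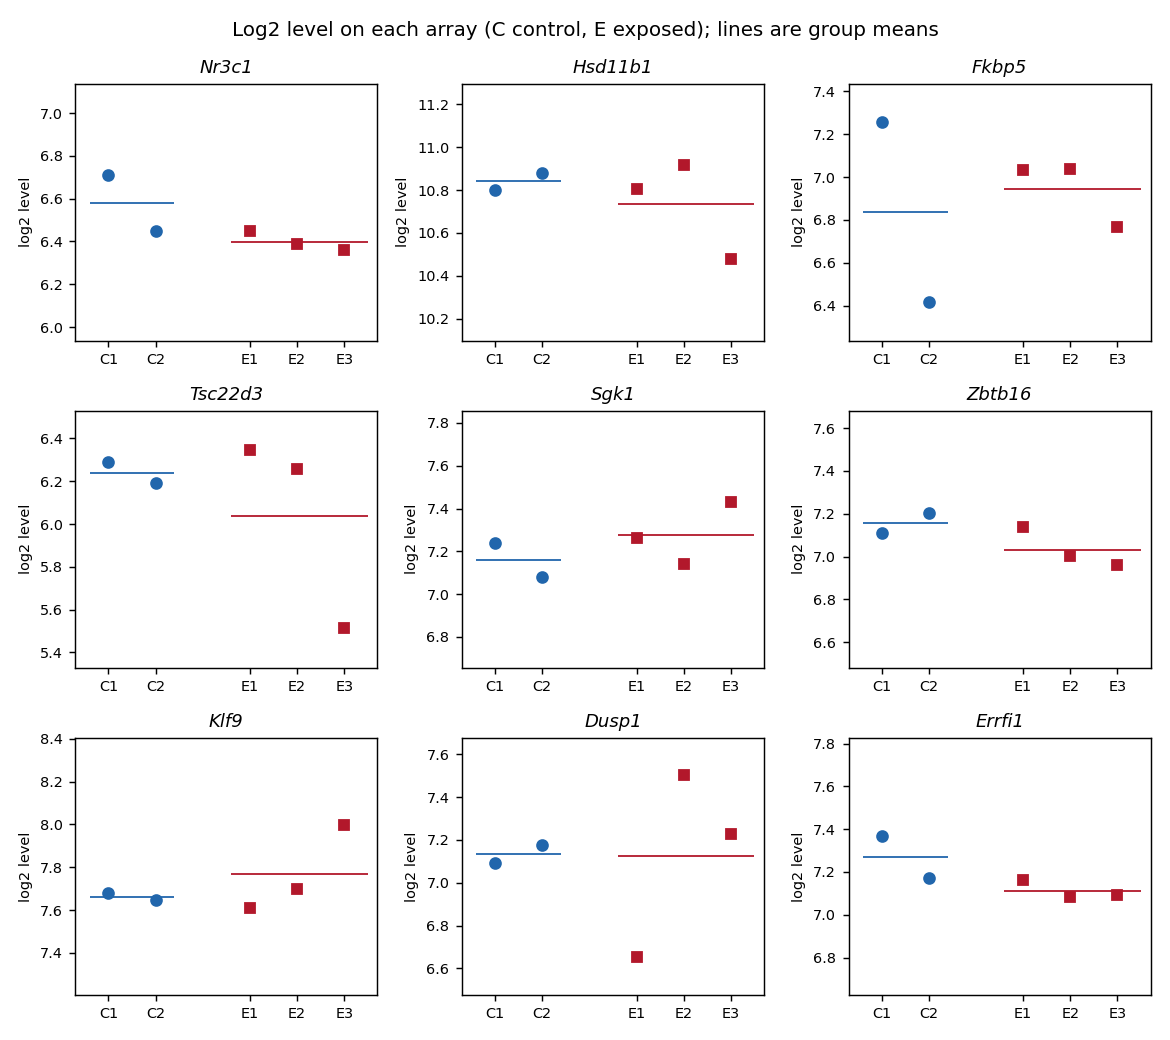
Log2 level (vertical axis, 1.2 units in every panel) of the 9 measured genes on control arrays (C1 and C2, circles) and exposed arrays (E1 to E3, squares), with lines at the group means. The groups overlap for every gene but Errfi1, and single arrays stand apart for Tsc22d3 (E3 at 5.51), Dusp1 (E1 at 6.65) and Fkbp5 (C2 at 6.42).

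Nr3c1 encodes the receptor itself. Its log2 level was 6.45, 6.39 and 6.36 on exposed arrays 1 to 3, and 6.71 and 6.45 on control arrays 1 and 2. Control array 1 was the highest, and the other 4 arrays lay within 0.09 of each other. Exposed array 1 and control array 2 held exactly the same value, 6.4477, so the groups met at that tie. Such ties were common in the deposited values: 27.2% of all probe sets had the same value on at least 2 arrays. The difference was -0.18 (95% interval -0.51 to 0.15), with a limma adjusted p of 0.93. It was -0.048 without control array 1 and -0.31 without control array 2.

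Hsd11b1 encodes the reductase that regenerates active glucocorticoid from its inactive keto form and is abundant in mature fat cells. It read 10.80, 10.92 and 10.48 on exposed arrays 1 to 3, with the controls at 10.80 and 10.88. Exposed array 3 was the low one, and the other 4 arrays spanned 0.11. The difference was -0.11 (-0.51 to 0.30, limma adjusted p 0.95) and turned to 0.019 without exposed array 3, with -0.20 without exposed array 2. H6pd, which supplies this enzyme with its cofactor inside the endoplasmic reticulum, was at 5.91 ± 0.16 (SD, n = 3) exposed and 5.97 ± 0.0054 (SD, n = 2) control, a difference of -0.067 that was 0.024 without exposed array 1. Hsd11b2, the enzyme of the opposite reaction, differed by 0.13 (-0.28 to 0.53), and by -0.034 without control array 1 and 0.29 without control array 2.

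Fkbp5, a co-chaperone that the receptor induces and that lowers the receptor's hormone affinity, varied most between the control arrays. It was at 7.03, 7.04 and 6.77 on exposed arrays 1 to 3, and at 7.26 and 6.42 on control arrays 1 and 2. The controls held both the highest and the lowest value, 0.84 apart, with all exposed arrays between them. The group difference of 0.11 (-0.52 to 0.74, limma adjusted p 0.97) was 0.53 without control array 1 and -0.31 without control array 2, so its sign depended on which control was kept.

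Tsc22d3 encodes the glucocorticoid-induced leucine zipper, which binds and restrains inflammatory transcription factors. On exposed arrays 1 to 3 it read 6.35, 6.26 and 5.51, and the control arrays read 6.29 and 6.19. Exposed array 3 read far below the other 4, which spanned 0.16. The difference of -0.20 (-0.85 to 0.45, limma adjusted p 0.94) became 0.062 without that array and -0.35 without exposed array 1.

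Sgk1, a kinase of sodium and survival signalling whose window holds the palindrome shown above, was at 7.26, 7.14 and 7.43 on exposed arrays 1 to 3, and at 7.24 and 7.08 on control arrays. Exposed array 3 was the highest and control array 2 the lowest, and the groups overlapped. The difference was 0.12 (-0.23 to 0.47, limma adjusted p 0.94), and it was between 0.038 and 0.20 with any 1 array left out, lowest without control array 2 (0.038) or exposed array 3 (0.041) and highest without control array 1 (0.20) or exposed array 2 (0.19).

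Zbtb16, a zinc finger repressor that glucocorticoids induce in many cells, had the narrowest range of the 9, 0.24 over the 5 arrays. It read 7.14, 7.00 and 6.96 on exposed arrays 1 to 3, with the controls at 7.11 and 7.20. Exposed array 1 lay between the controls and the other exposed arrays lay below them. The difference was -0.12 (-0.44 to 0.19, limma adjusted p 0.93). It was -0.079 without control array 2.

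Klf9, a transcription factor gene of the Krüppel-like family induced by glucocorticoid and thyroid hormone, was at 7.61, 7.70 and 7.997 on exposed arrays 1 to 3, and at 7.68 and 7.65 on control arrays. Exposed array 3 was the high one, and the other 4 arrays spanned 0.089. The difference of 0.11 (-0.28 to 0.49, limma adjusted p 0.95) was 0.19 without exposed array 1 and -0.0073 without exposed array 3.

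Dusp1 and Errfi1 encode feedback inhibitors of growth factor signalling, and both carried the cyclic AMP element printed above. Dusp1, a phosphatase of MAP kinases, was at 6.65, 7.50 and 7.23 on exposed arrays 1 to 3, with the controls at 7.09 and 7.18. The exposed arrays held both ends of its range of 0.85, the widest of the 9. Its difference was -0.0093 (-0.63 to 0.61, limma adjusted p 1.00), and 0.23 without exposed array 1, -0.20 without exposed array 2 and 0.033 without control array 2. Errfi1, which binds and inhibits the EGF receptor, read 7.16, 7.08 and 7.09 on exposed arrays, against 7.37 and 7.17 on control arrays. Every exposed array was below both controls, by 0.012 at the closest pair. The difference was -0.16 (-0.47 to 0.15, limma adjusted p 0.93), with -0.060 without control array 1 and -0.26 without control array 2.

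**Figure D2:**
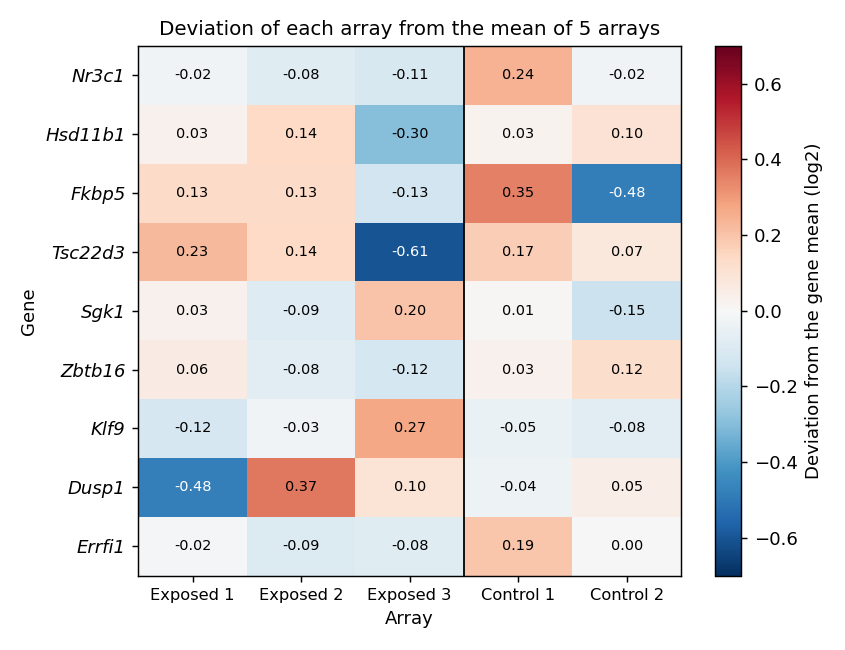
Deviation of each array (columns) from the gene's own mean over 5 arrays (rows are the 9 genes; log2 units, red higher, blue lower, values printed in the cells). Exposed array 3 is low for Tsc22d3 (-0.61) and Hsd11b1 (-0.30) and high for Klf9 (0.27) and Sgk1 (0.20), while control array 2 is low for Fkbp5 (-0.48) and exposed array 1 for Dusp1 (-0.48).

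The targets did not vary as 1 block across arrays. Exposed array 3 was the lowest of the 5 for 4 genes (Nr3c1, Hsd11b1, Tsc22d3 and Zbtb16) and the highest for 2 (Sgk1 and Klf9). Control array 1 was the highest for 3 genes (Nr3c1, Fkbp5 and Errfi1) and the lowest for none. Ranges over the 5 arrays were over 0.8 for Dusp1, Fkbp5 and Tsc22d3, and at most 0.44 for the other 6, beside a median of 0.44 for the brighter probe sets (mean level not below the median). For 7 of the 9 genes the group difference was smaller than the larger of the SDs within a group, and for 5 it was smaller than the gap between the 2 control arrays. Errfi1 was the 1 gene of 9 whose groups did not overlap, beside 17.3% of all probe sets. That count was 3 (Nr3c1, Zbtb16 and Errfi1) when each array was centred on its median, where the share of all probe sets was 17.8%. It was 5 of 9 without exposed array 1 (30.1% of all probe sets), 2 without exposed array 2 (31.6%) and 1 without exposed array 3 (29.1%). Without control array 1 it was 4 (44.6%), and without control array 2 it was 3 (45.1%).

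The genes most like Dusp1, the member of widest range, were sought among 9718 probe sets with 1 gene symbol and a level not below the median. Members and predicted genes were left out of these. Likeness was the root mean square distance between deviations from each gene's own mean over the 5 arrays. The closest were Pold3, a DNA polymerase subunit, at 0.048, Arhgef18 at 0.053 and Agbl3, a carboxypeptidase, at 0.056. Pold3 read 6.21, 7.02 and 6.76 on exposed arrays and 6.74 and 6.70 on control arrays, so exposed array 1 was its lowest and exposed array 2 its highest, as for Dusp1. That match follows from the selection by smallest distance and is no separate result.

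**Figure D3:**
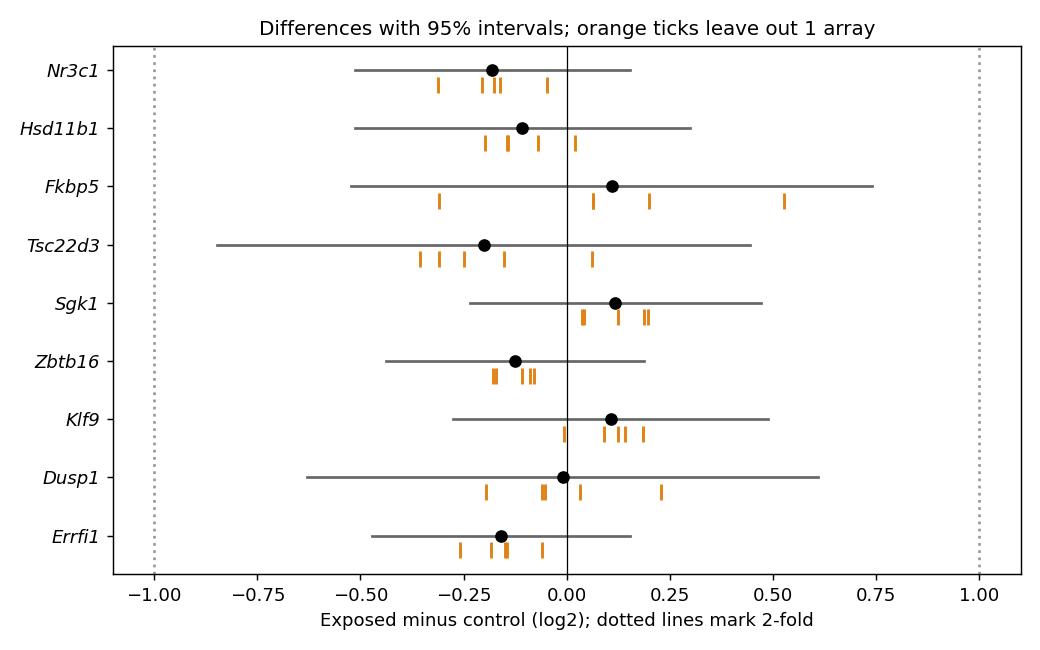
Exposed minus control (horizontal axis, log2) for the 9 genes, with points for the difference over 5 arrays, bars for limma's 95% interval and orange ticks for the difference with 1 array left out; dotted lines mark 2-fold. Every interval crosses 0 and stays inside 2-fold, and the ticks of Hsd11b1, Fkbp5, Tsc22d3, Klf9 and Dusp1 fall on both sides of 0.

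Other genes of the pathway were counted in 4 lists of 80 genes, of which 75 were measured and 0 passed the test in either direction. At an unadjusted p under 0.05 there were 4 of 75, beside 3.49% of all probe sets: Fkbp4, Ncoa2, Abcb1b and Il1a, the last named after its values were seen. Among 30 further genes that glucocorticoids induce, 17 were higher and 13 lower in mean on exposed arrays, with a median of 0.018 that was 0.047 without control array 1. Exposed and control arrays did not overlap for 7 of them (23.3%, against 17.3% of all probe sets), 5 higher and 2 lower. The list ran from -0.20 for Plin4, a lipid droplet coat gene, to 0.39 for Fam107a, which was 0.77 without control array 1 and 0.0036 without control array 2.

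Per1, a clock gene with a direct receptor response, was at 7.52, 7.75 and 7.59 on exposed arrays against 7.01 and 7.58 on control arrays. Control array 1 was the low one, and the difference of 0.33 (-0.15 to 0.81, limma adjusted p 0.93) was 0.045 without it and 0.61 without control array 2. Pdk4, a kinase that turns off pyruvate oxidation, was at 7.04, 6.74 and 7.08 against 6.72 and 6.67, all exposed arrays above both controls, a difference of 0.26 (-0.11 to 0.63). Mt2, a metallothionein, was likewise higher on each exposed array, at 12.22, 12.33 and 12.44 against 12.10 and 12.18, a difference of 0.19 (-0.13 to 0.51). None of these passed the test. The adipogenic factors Cebpd and Cebpb differed by -0.012 and 0.15, the lipase inhibitor gene Angptl4 by -0.12 and the mTOR inhibitor gene Ddit4 by 0.021. Those of Cebpd and Ddit4 changed sign with single arrays left out. Cebpb was 0.022 without exposed array 3 and 0.36 without exposed array 2, and Angptl4 was -0.061 without control array 1 and -0.19 without control array 2.

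Inflammatory genes that glucocorticoids repress were 6 higher and 10 lower of 16, with a median of -0.025 that was 0.015 without control array 1 and -0.10 without control array 2. Groups did not overlap for 3 of them (18.8%, against 17.3% of all probe sets), all lower on exposed arrays. Over all probe sets, every exposed array was lower than both controls for 8.84% and higher for 8.5%. Il6 held the low end, at 4.39, 4.72 and 5.75 on exposed arrays against 5.06 and 5.83 on control arrays, a difference of -0.50 (-1.55 to 0.56). Its arrays overlapped widely, and the difference was -0.89 without exposed array 3, -0.88 without control array 1, -0.21 without exposed array 1 and -0.11 without control array 2. The high end was the chemokine gene Ccl20 at 0.60 (-0.19 to 1.38), which was 0.30 without exposed array 3 and 0.35 without control array 2. The chemokine gene Ccl2 and the prostaglandin synthase gene Ptgs2 differed by -0.044 and -0.12. With 1 array left out they ran from -0.17 to 0.081 (without control arrays 2 and 1) and from -0.25 to -0.030 (without exposed arrays 2 and 1). Il1a was dim, at 2.30, 2.34 and 2.54 against 2.75 and 2.72, a difference of -0.34 (-0.66 to -0.01, limma adjusted p 0.93).

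Chaperones and co-regulators of the receptor were 6 higher and 12 lower of 18, with a median of -0.077 that was 0.0053 without control array 1. Groups did not overlap for 6 of the 18 (33.3%, against 17.3% of all probe sets), 2 higher and 4 lower. Fkbp4, the co-chaperone that competes with Fkbp5 for the receptor complex and favours its transport to the nucleus, was at 7.74, 7.87 and 7.91 on exposed arrays against 8.26 and 8.16 on control arrays. All exposed arrays lay below both controls, and the difference of -0.37 (-0.68 to -0.06) had a limma adjusted p of 0.93. Ncoa2, a coactivator that docks on the ligand-bound receptor, was at 8.30, 8.07 and 8.15 against 8.57 and 8.50, a difference of -0.36 (-0.68 to -0.04, limma adjusted p 0.93). Both kept intervals below 0 singly but did not pass over all probe sets. Ptges3, the small co-chaperone that steadies the hormone-binding form, read 6.24, 6.35 and 5.46 on exposed arrays and 6.52 and 5.15 on control arrays. Like Fkbp5 it was highest on control array 1 and lowest on control array 2, and its difference of 0.18 (-0.92 to 1.29) was -0.50 without control array 2 and 0.87 without control array 1. The list ended at -0.54 (-1.10 to 0.02) for the co-repressor gene Nrip1 and at 0.22 for the heat shock gene Hspa1a, which was 0.35 without exposed array 3 and 0.13 without exposed array 1. Hsp90ab1, a chaperone gene of the list, was not analysed here.

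Genes of steroid metabolism and the mineralocorticoid receptor were 8 higher and 3 lower of 11, with a median of 0.16 that was 0.035 without control array 1 and 0.076 without exposed array 1 (0.15 to 0.21 without any other single array). Of the 11 genes 6 lay below the median level, where RMA compresses differences. Groups did not overlap for 2 of them (18.2%, against 17.3% of all probe sets), both higher on exposed arrays. Nr3c2, the mineralocorticoid receptor gene, was at 5.20, 5.23 and 5.06 on exposed arrays against 4.80 and 5.21 on control arrays, which overlapped, a difference of 0.16 (-0.24 to 0.56) that was -0.050 without control array 1 and 0.36 without control array 2. Abcb1b, a multidrug pump that can export steroids, was at 4.98, 5.00 and 5.40 against 4.67 and 4.74, a difference of 0.42 (0.01 to 0.83, limma adjusted p 0.93). The low end was Akr1c18, a steroid reductase, at -0.095 and a mean level of 2.23, with a difference of -0.0071 without exposed array 2 and -0.22 without exposed array 3.

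**Figure D4:**
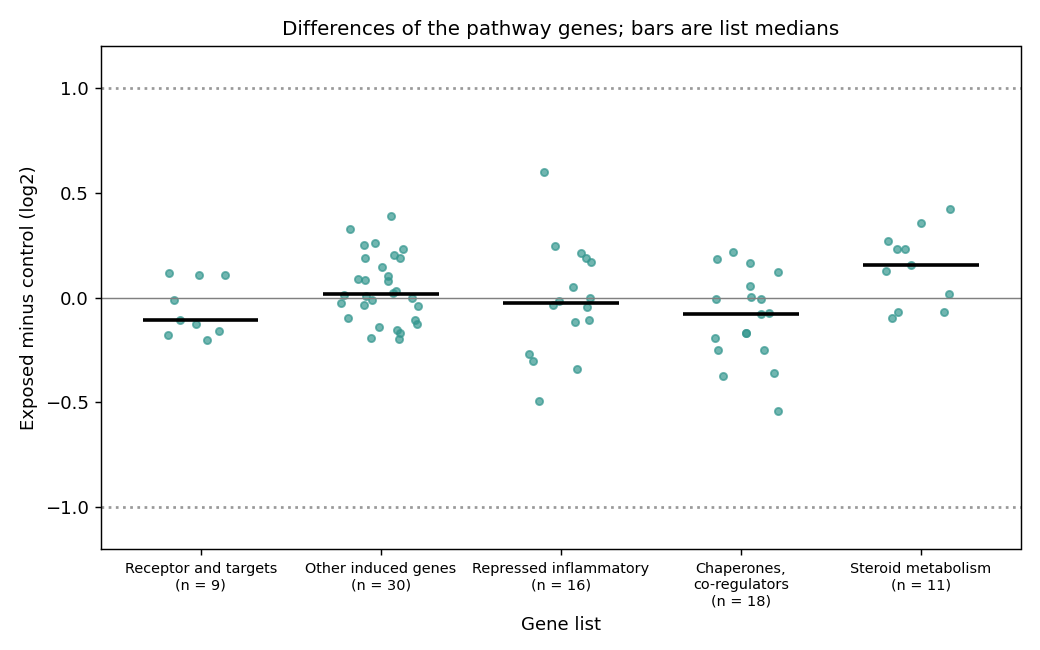
Exposed minus control (vertical axis, log2) for each measured gene of the receptor and target list and of the 4 other pathway lists; points are genes, bars are list medians and dotted lines mark 2-fold. Medians lie between -0.11 and 0.16, and no gene lies beyond 2-fold.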

How the data were processed

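Each sample was 1 Affymetrix Clariom S mouse array. The deposited values are log2 expression values made by the authors with RMA (background correction, quantile normalization and probe set summary) in Partek, per the submitters' processing notes; tool versions and the build of the annotation are not given in the sources used here. Values ran from 1.20 to 13.2, and array medians from 4.80 to 4.88. The number of arrays limits the precision. RMA compresses differences between dim signals.

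Of 22206 probe sets 19572 had 1 gene symbol in the platform annotation, 0 had several and 2634 had none. Limma 3.58.1 in R 4.3.3 was fitted to all probe sets without a filter, with group as the only term, and two-sided p-values received Benjamini-Hochberg adjustment over all of them. The fit was tested on simulated data with shifts larger than the difference of any member. That test therefore does not cover differences of the members' size. Where a gene had several probe sets, the one of highest mean stood for it. All measured members were named. From each pathway list the text named a set choice of genes whatever their values, the ends of the range and any called gene, and from each marker list the brightest and dimmest gene. Adipoq and Pparg were named whatever their values. Retn and Cebpa were named after their values were seen, as their groups did not overlap. The members and lists were chosen with earlier results of these data known. Scaling, a filter on dim probe sets, moderation, array weights, 2 blocks, the threshold, the choice of probe set and each left-out array were varied. RefSeq promoter windows were matched by symbol.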

Additional observations from a re-analysis of the deposited data

How the results depend on the processing

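Under all settings tried, limma called 0 members and 0 probe sets, also at an adjusted p under 0.10. The smallest adjusted p of a member was between 0.79 and 0.98 with 1 array left out; with a control array left out, the fit lends the remaining control the spread of the exposed arrays. The count at an unadjusted p under 0.05 (776 probe sets) was 1378 without control array 1 and 362 among the brighter probe sets, of which fewer entered the test. Errfi1, Nr3c1, Sgk1 and Zbtb16 kept their sign in all 14 alternatives each, and the other 5 members did not. Several alternatives could not change a sign: the filter on dim probe sets and the forms of moderation leave differences as they are. Averaging probe sets did too, as each member had 1, and each block repeated a fit with 1 array left out. With 1 array left out the differences ran from -0.20 to 0.23 for Dusp1, -0.31 to 0.53 for Fkbp5, -0.20 to 0.019 for Hsd11b1, -0.0073 to 0.19 for Klf9 and -0.35 to 0.062 for Tsc22d3. Dusp1 was 0.040 after a further quantile normalization, 0.093 with array weights and 0.23 in a block of neighbouring title numbers. In that block exposed array 1 has no partner, so the value equals the value without it. The count of members whose groups did not overlap was 3 with arrays centred on their median (17.8% of all probe sets). It was 1 to 5 with 1 array left out, where the share of all probe sets was 29.1% to 45.1%. The median over the members was -0.14 to -0.0073 with 1 array left out. The cause of these shifts was not tested.

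The descriptions number the replicates of both groups. Deviations of same-numbered arrays from their group means correlated at -0.014 (number 1) and -0.032 (number 2). With 2 control arrays, the deviations of 1 mirror those of the other, so these correlations cannot decide whether same-numbered arrays were paired. With the replicate number as a block, exposed array 3 has no partner, and the values equal those without it: the median over the members was -0.0073, Hsd11b1 0.019, Tsc22d3 0.062 and Klf9 -0.0073, and the block left the count of calls at 0.

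Of 24 further pathway genes followed in alternatives chosen after seeing the data, 17 kept their sign. The others ran, with 1 array left out, from -0.074 to 0.049 for Cebpd, -0.076 to 0.12 for Ddit4, -0.17 to 0.081 for Ccl2, -0.50 to 0.87 for Ptges3, -0.12 to 0.024 for H6pd, -0.034 to 0.29 for Hsd11b2 and -0.050 to 0.36 for Nr3c2. Cebpd was 0.024 after a further quantile normalization. With title numbers as a block Ddit4 was -0.017 and H6pd 0.024, the same values as without exposed array 1. For these genes too, the filter on dim probe sets could not change a sign, and each block repeated a fit with 1 array left out.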
